A study of Mus musculus with 12 samples.

Results

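The miR-106a to miR-363 cluster is a group of miRNA hairpins on the mouse X chromosome. It was followed through 10 mature miRNAs, chosen by name, which the table lists as mmu-miR-106a-5p, mmu-miR-106a-3p, mmu-miR-18b-5p, mmu-miR-18b-3p, mmu-miR-20b-5p, mmu-miR-20b-3p, mmu-miR-19b-2-5p, mmu-miR-92a-2-5p, mmu-miR-363-5p and mmu-miR-363-3p. The prefix mmu, for mouse, is left out below. They are 10 of the 1042 miRNAs listed, and all 10 were among the 732 miRNAs that had at least 10 reads in at least 2 libraries and were tested. The 3p arms of miR-19b-2 and miR-92a-2 are not members, because the same sequences are also made from another cluster and are listed there once.

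Small RNA of 18–30 nt was sequenced from 5 mouse cell types in 12 libraries. MEFs (mouse embryonic fibroblasts, C57B6/129SvJae F1) gave 3 libraries and ESCs (the embryonic stem cell line E14, 129/ola) gave 3. The reprogrammed cells gave 2 libraries per type and all came from the same C57B6/129SvJae F1 MEFs: NT-ESCs derive from oocytes that received a MEF nucleus, NT-iPSCs from oocytes that received the nucleus of an iPSC, and iPSCs from MEFs given c-Myc, Klf4, Sox2 and Oct4 on a dox-inducible lentivirus. All pluripotent cells were grown on irradiated MEF feeders with LIF. Each type was 1 line, and its replicates were RNA batches of that line, so errors say nothing of line to line variation. The only ESC line is of another strain. In the study's sequencing summary, all 6 reprogrammed libraries also had a larger share of 5′ adaptor contaminants and a smaller share of reads without a 3′ adaptor than all MEF and ESC libraries. For these reasons cell type, strain, line and library handling cannot be told apart between ESCs and reprogrammed cells.

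A miRNA hairpin is cut to a short duplex, and one strand of it, from the 5p or the 3p arm, is usually loaded into Argonaute while its partner is lost. The loaded strand finds its targets mainly through the seed, bases 2 to 8. Vertebrates carry 3 related clusters that arose by duplication: miR-17 to miR-92a, which is known as an oncogenic cluster and is needed for normal development, miR-106b to miR-25 inside a gene for a replication protein, and miR-106a to miR-363 on the X chromosome, which is known to be active in embryonic stem cells and nearly silent in most differentiated cells. Their 5p arms with the seed AAAGUGC are known to target cell cycle inhibitors, and a seed of the miR-92 type is shared by miR-363-3p, miR-92a-3p, miR-25-3p and miR-367-3p.

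In GRCm38 the 6 hairpins of the cluster lie on the minus strand within 875 bases, at chrX:52741693-52742567, in the order miR-106a, miR-18b, miR-20b, miR-19b-2, miR-92a-2 and miR-363 from 5′ to 3′. GENCODE M21 annotates each as a miRNA gene of 1 exon. The first hairpin overlaps the 3′ end of the non-coding transcript Kis2 by 5 bases, and the others lie downstream of it. RefSeq held a mature sequence for 9 of the 10 members, and miR-363-5p was without an entry. The mature sequences are shown because the members fall into families by their seed, which is in capitals:
miR-106a-5p: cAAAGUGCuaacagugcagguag
miR-20b-5p: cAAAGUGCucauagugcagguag
miR-18b-5p: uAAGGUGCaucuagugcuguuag
miR-106a-3p: aCUGCAGUgccagcacuucuuac
miR-20b-3p: aCUGCAGUgugagcacuucuag
miR-18b-3p: uACUGCCCuaaaugccccuucu
miR-19b-2-5p: aGUUUUGCagauuugcaguucagc
miR-92a-2-5p: aGGUGGGGauugguggcauuac
miR-363-3p: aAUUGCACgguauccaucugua

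The counterparts of the 4 main arms in the miR-17 to miR-92a cluster on chromosome 14 are shown for comparison, again with the seed in capitals. miR-106a-5p differs from miR-17-5p by an edit distance of 1 base, and miR-18b-5p and miR-20b-5p differ by 2 bases from miR-18a-5p and miR-20a-5p. Reads of such near-identical copies can be split between them by the authors' annotation, so each of these 3 members was also tested with its counterpart's reads added.
miR-17-5p: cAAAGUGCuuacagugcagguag
miR-20a-5p: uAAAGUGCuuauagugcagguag
miR-18a-5p: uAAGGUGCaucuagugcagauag
miR-92a-3p: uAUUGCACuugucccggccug

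The libraries held 4863365 to 8608689 recovered miRNA reads each. The labelled cell types were checked against 9 miR-290 and miR-302 cluster miRNAs that mark pluripotent cells. Their summed normalized reads were 8.55 to 102 in the MEF libraries, with 2 of the 9 at 0 in all of them, while ESCs had 403926 to 484505 and reprogrammed cells had 540504 to 922557. The sum of 8 miRNAs that mark fibroblasts and feeder cells was highest in MEFs, at 695538 to 1122940, whereas ESCs had 227495 to 261597 and reprogrammed cells had 64514 to 250894. It differed among the reprogrammed types, with iPSCs at 64514 to 66888, NT-ESCs at 180573 to 193323 and NT-iPSCs at 212263 to 250894. The members themselves were at 0 to 76.9 normalized reads in MEFs, and the part of feeder cells in the results was not tested. Levels below are normalized reads, that is, reads divided by the library's size factor. Differences are differences of group means on the deposited log2 scale (VST, the variance stabilizing transformation of DESeq), tested with limma and called at a Benjamini-Hochberg adjusted p under 0.05 over all 732 miRNAs. In sequencing of small RNA, ligation favours some ends, so levels are compared between cell types, and between miRNAs only as shares of reads.

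The first question was whether the cluster separates pluripotent cells from fibroblasts. In ESCs against MEFs, limma called all 10 members higher, where 79.0% of all 732 miRNAs were called and 39.9% were called higher. This count is a description only: 3 members, miR-20b-5p, miR-106a-5p and miR-363-3p, passed the filter on reads in the MEF libraries alone, while the other 7 passed it through pluripotent libraries and could hardly have been lower there. miR-20b-5p, of the cell cycle seed family, took the largest share of the cluster's reads in ESCs, 51.2% to 55.9%. Its normalized reads were 69.6, 75.7 and 76.9 in the 3 MEF libraries and 21856, 26520 and 22586 in the 3 ESC libraries. The difference was 8.30 (SE 0.14, limma adjusted p = 8.42e-13), and the mean was 320-fold higher in ESCs; with the reads of its near-identical counterpart added, the difference was 1.75. miR-106a-5p, with the same seed, was at 42.0, 23.2 and 34.0 normalized reads in MEFs and at 7451, 11363 and 8692 in ESCs. This was a 277-fold higher mean, with a difference of 8.10 (SE 0.23), or 1.353 with the counterpart's reads added. The MEF and ESC libraries of both miRNAs were far apart and did not overlap, as was also the case for 79.9% of all 732 miRNAs.

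Members of other hairpins were also higher. miR-18b-5p was at 6.56, 6.10 and 10.1 normalized reads in MEFs and at 1908, 2567 and 2210 in ESCs, a 294-fold higher mean, although its summed pair had a difference of only 1.12. miR-363-3p, which carries the miR-92 type seed, was at 24.9, 20.8 and 20.2 in MEFs and at 4730, 5494 and 6672 in ESCs, a 257-fold higher mean. Its 5p arm was at 10.5, 10.99 and 16.4 in MEFs and at 1717, 2489 and 2168 in ESCs, a 168-fold higher mean. Differences of these 3 were 8.10, 7.95 and 7.33 (SE 0.22, 0.17 and 0.20). miR-92a-2-5p had 1 read in each MEF library and 1145, 1547 and 1481 reads in the ESC libraries, so that the ratio of normalized summed reads was 1176 with a 95% counting interval of 402 to 5705.

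The other 4 members had no read in any MEF library, which allows up to 3 reads per library. miR-20b-3p was at 57.5, 65.1 and 48.7 normalized reads in ESCs, at least 15.1-fold higher than that limit. miR-19b-2-5p was at 65.4, 72.1 and 97.5 in ESCs, at least 20.6-fold higher. miR-18b-3p was lower, at 6.77, 5.005 and 7.58 normalized reads, at least 1.70-fold higher. miR-106a-3p had 1, 1 and 3 reads in ESCs, which is within the same limit, so no fold is given although limma called its VST difference of 2.68 (SE 0.39, adjusted p = 6.33e-05). With all libraries thinned to equal depth, this was the only one of the 10 that lost its call (adjusted p = 0.0602). These limits and intervals cover counting error only, since amplified reads are not independent molecules.

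**Figure D1:**
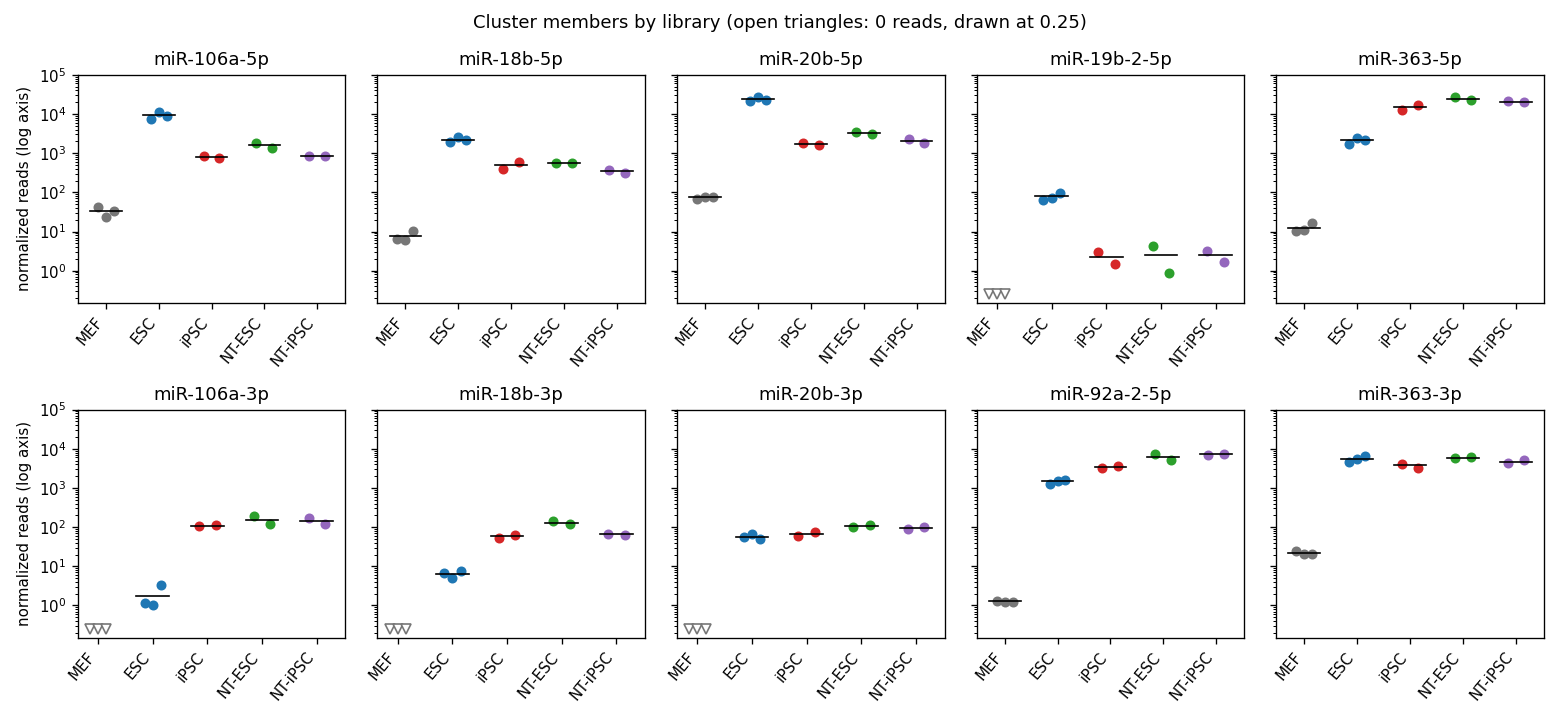
Normalized reads of the 10 members in the 12 libraries, on a log axis. Points are libraries, coloured by cell type, short lines are group means, and open triangles mark libraries with 0 reads, drawn at 0.25. The 5p arms of miR-106a, miR-18b and miR-20b peak in ESCs, while miR-363-5p, miR-92a-2-5p and the 3p arms of miR-106a and miR-18b peak in reprogrammed cells.

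The related clusters moved less between these cell types. In ESCs against MEFs, 79.0% of all 732 miRNAs were called and 39.9% were called higher. Of 10 arms made by the miR-17 to miR-92a cluster alone, 7 were higher in ESCs than in MEFs, none was lower and 3 did not pass the test, with a median difference of 1.13. Among the 7, miR-19a-5p had only 3 to 5 reads in ESC libraries and 0 or 1 in MEF libraries. All 6 arms of the miR-106b to miR-25 cluster were higher, with a median of 1.43. Both shared arms, miR-19b-3p and miR-92a-3p, were higher, by 0.90 and 0.96. The median over the 10 members of the X-linked cluster, with the direction of 7 set as above, was 7.88 and the median over all 732 miRNAs was 0.

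As a share of all miRNA reads, the 10 members summed to 0.00137%, 0.00144% and 0.00156% in the MEF libraries, that is 113 to 126 reads per library. The share was 0.713%, 0.868% and 0.810% in ESCs, 0.608% and 0.609% in iPSCs, 0.887% and 0.713% in NT-ESCs and 0.587% and 0.589% in NT-iPSCs. Every pluripotent library was above every MEF library. The mean difference between the 9 pluripotent and the 3 MEF libraries was 0.708 percentage points, with p = 0.00909 in a two-sided exact permutation test, which cannot go lower in this design. Between the 6 reprogrammed and the 3 ESC libraries the difference was -0.131 percentage points, with p = 0.167 in the same exact test, where the smallest possible is 0.0238. The groups overlapped through NT-ESCs, while all 4 iPSC and NT-iPSC libraries were below every ESC library.

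In reprogrammed cells against MEFs, limma also called all 10 members higher, where 88.9% of all miRNAs were called and 48.5% were called higher. The same 7 members lacked reads in MEFs for the filter, so this count too is a description, and the contrast shares the MEF libraries with that of ESCs. With the counterpart's reads added, the direction turned for miR-106a-5p (-2.07), miR-18b-5p (-2.35) and miR-20b-5p (-2.46). miR-363-5p, with 54.8% to 62.4% of the cluster's reads, was at 12955 to 26943 normalized reads, against 10.5 to 16.4 in MEFs, a difference of 10.54 (SE 0.17). miR-92a-2-5p had the largest difference, 11.47 (SE 0.14), from 1 read in each MEF library. Its ratio of normalized summed reads was 4466, with a 95% counting interval of 1528 to 21659. That interval takes in the ratio of miR-363-5p, 1578, so the rank of these 2 is not secure. Against the limit of 3 reads per MEF library, miR-106a-3p was at least 36.0-fold, miR-20b-3p at least 23.7-fold and miR-18b-3p at least 22.3-fold higher. miR-19b-2-5p had only 1 to 6 reads in a reprogrammed library, mostly at or near that limit, so no fold is given beside its VST difference of 3.01 (SE 0.43, limma adjusted p = 4.28e-05).

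The second question was whether reprogrammed cells reached the ESC level. Of the 10 members, 5 had a higher level in reprogrammed cells than in ESCs, 4 were lower and 1 did not pass the test. In this contrast 82.0% of all 732 miRNAs were called, 44.0% higher and 38.0% lower, so the number of members called is near the background. Reprogrammed and ESC libraries did not overlap for 8 of the 10 members and for 520 of all 732 miRNAs. The direction of 3 of the called members was set by the filter, since miR-106a-3p and miR-18b-3p passed it only through reprogrammed libraries and miR-19b-2-5p only through ESCs. Taken by type, the contrasts of iPSCs, of NT-ESCs and of NT-iPSCs against ESCs each called 9 of the 10 members, where 75.8%, 75.8% and 77.6% of all miRNAs were called.

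Those that fell were 5p arms of the upstream hairpins. miR-20b-5p was at 1856 and 1620 normalized reads in iPSCs, 3484 and 3164 in NT-ESCs and 2273 and 1830 in NT-iPSCs, all below the lowest ESC library at 21856. The mean was 9.98-fold higher in ESCs, and the difference was -3.37 (SE 0.12, limma adjusted p = 2.62e-10). miR-106a-5p was at 826 and 747 in iPSCs, 1836 and 1390 in NT-ESCs and 866 and 857 in NT-iPSCs, again all below the lowest ESC library at 7451. The mean was 8.43-fold higher in ESCs, with a difference of -3.14 (SE 0.20). miR-18b-5p was at 405 and 593 in iPSCs, 556 and 554 in NT-ESCs and 367 and 320 in NT-iPSCs, against 1908 or more in ESCs. Its mean was 4.78-fold higher in ESCs, with a difference of -2.28 (SE 0.19). miR-19b-2-5p had 4 and 2 reads in iPSCs, 6 and 1 in NT-ESCs and 4 and 2 in NT-iPSCs, against 58, 72 and 90 in ESCs. Its ratio of normalized summed reads in ESCs to reprogrammed cells was 31.9, with a 95% counting interval of 19.96 to 54.0, and the difference was -4.79 (SE 0.43).

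Those that rose were 5p arms of the downstream hairpins and the rarer 3p arms. miR-363-5p was at 12955 and 16929 normalized reads in iPSCs, 26943 and 22242 in NT-ESCs and 20883 and 19671 in NT-iPSCs, all above the highest ESC library at 2489. The mean was 9.38-fold higher in reprogrammed cells, with a difference of 3.21 (SE 0.17, limma adjusted p = 9.71e-09). miR-92a-2-5p was at 3173 and 3706 in iPSCs, 7502 and 5169 in NT-ESCs and 7051 and 7412 in NT-iPSCs, against 1291 to 1604 in ESCs. The mean was 3.83-fold higher, with a difference of 1.86 (SE 0.14). miR-106a-3p, almost absent from ESCs, was at 104 and 112 normalized reads in iPSCs, 190 and 119 in NT-ESCs and 173 and 123 in NT-iPSCs. Its ratio of normalized summed reads was 77.2, with a 95% counting interval of 33.0 to 238, and the difference was 5.91 (SE 0.33).

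miR-18b-3p was at 53.6 and 64.5 normalized reads in iPSCs, 140 and 117 in NT-ESCs and 67.0 and 64.6 in NT-iPSCs, against 5.005 to 7.58 in ESCs. The ratio of normalized summed reads was 13.2, with a 95% counting interval of 8.31 to 22.5, and the difference was 3.50 (SE 0.24). miR-20b-3p moved least among those called, from 48.7 to 65.1 in ESCs to 59.5 and 75.4 in iPSCs, 103 and 111 in NT-ESCs and 90.8 and 99.3 in NT-iPSCs. The ranges overlap, the mean was 1.57-fold higher, and the difference of 0.63 (SE 0.21, limma adjusted p = 0.0159) lost its call with the scaling by a trimmed mean of log ratios (adjusted p = 0.0767) and without ESC replicate 4 (adjusted p = 0.0651).

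miR-363-3p was the member with no call in this contrast. Its normalized reads were 4197 and 3296 in iPSCs, 5735 and 6055 in NT-ESCs and 4248 and 5028 in NT-iPSCs, which overlap the 4730 to 6672 of ESCs. The difference was -0.26 (SE 0.14, limma adjusted p = 0.118). It was called lower with the scaling by a trimmed mean of log ratios (-0.47, adjusted p = 0.0256) and without ESC replicate 2 (-0.38, adjusted p = 0.0495). Taken by type, it was lower in iPSCs than in ESCs by a difference of -0.58 (SE 0.19, limma adjusted p = 0.0133), a call lost without iPSC replicate 63 (adjusted p = 0.125). In NT-ESCs and NT-iPSCs the differences from ESCs were 0.08 and -0.27 (SE 0.19 each) and did not pass the test.

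The same members therefore made up different mixtures. The 5p arms of miR-106a, miR-18b and miR-20b together held 78.8% ± 2.53 (SD, n = 3) of the cluster's reads in ESCs, and of the few reads in MEFs they held 76.2% ± 0.0825 (SD, n = 3). In iPSCs they held 11.98% ± 1.52 (SD, n = 2), in NT-ESCs 12.9% ± 0.341 (SD, n = 2) and in NT-iPSCs 9.11% ± 0.876 (SD, n = 2). In MEFs these arms had 78, 18 and 176 reads in all, against 38199, 11460 and 52087 of their near-identical counterparts. Whether counterpart reads were counted among them was not tested, so the MEF share may not describe the cluster. miR-363-5p and miR-92a-2-5p together held 8.10% ± 0.432 (SD, n = 3) in ESCs, about as in MEFs with 9.20% ± 1.77 (SD, n = 3), but iPSCs had 72.1% ± 5.50 (SD, n = 2), NT-ESCs 72.3% ± 2.59 (SD, n = 2) and NT-iPSCs 77.02% ± 0.747 (SD, n = 2). miR-363-3p stayed near the same share, with means between 12.7% and 15.0% in all 5 cell types. The shares of miR-363-5p and of miR-92a-2-5p each differed between MEFs and ESCs without overlap, since miR-92a-2-5p held 0.794% to 0.885% of the cluster's reads in MEFs and 3.09% to 3.64% in ESCs, and miR-363-5p held 6.78% to 10.3% in MEFs and 4.39% to 4.97% in ESCs.

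**Figure D2:**
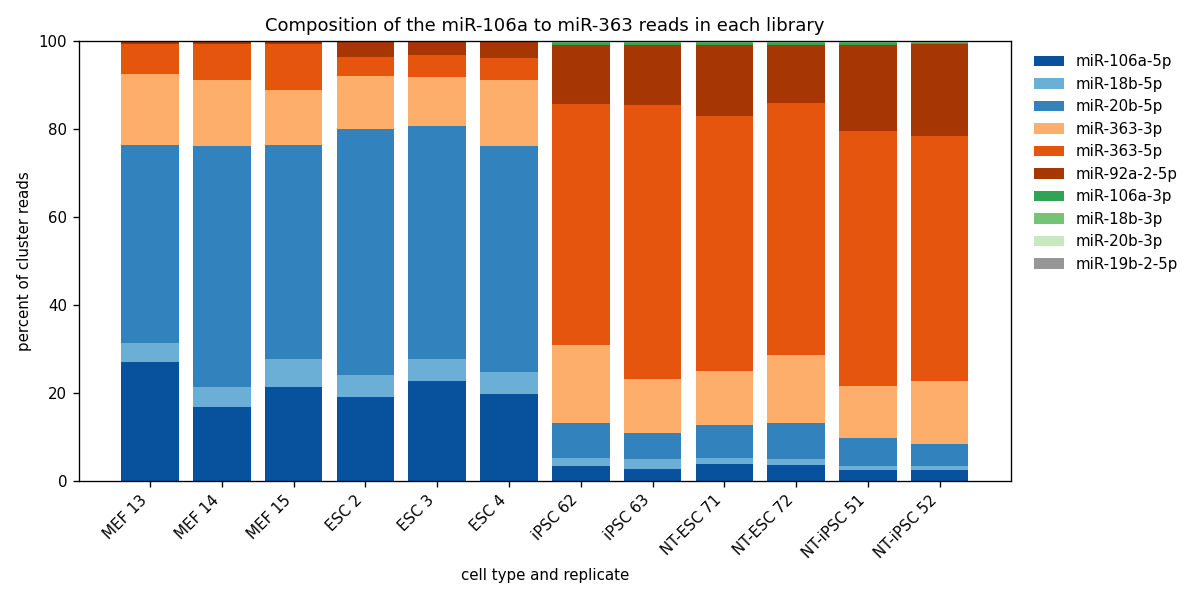
Share of the cluster's reads taken by each member, in percent, with 1 stacked bar per library. Blue parts, the 5p arms of miR-106a, miR-18b and miR-20b, fill 76.0% to 80.7% of the bars of MEFs and ESCs and 8.49% to 13.1% of those of reprogrammed cells, where miR-363-5p is the largest part. The MEF bars rest on 113 to 126 reads each.

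The 2 arms of 1 hairpin come from the same precursor, so their balance was compared within each hairpin. The hairpins with both arms listed as members are those of miR-106a, miR-18b, miR-20b and miR-363. The hairpins of miR-106a and miR-20b are shown from RefSeq with their annotated mature arms in capitals, and that of miR-363, where RefSeq annotates the 3p arm only, with that arm in capitals:
miR-106a hairpin: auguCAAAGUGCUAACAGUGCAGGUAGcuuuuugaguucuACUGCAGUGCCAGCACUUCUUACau
miR-20b hairpin: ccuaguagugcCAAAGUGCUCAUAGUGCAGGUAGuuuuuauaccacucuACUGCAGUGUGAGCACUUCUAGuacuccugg
miR-363 hairpin: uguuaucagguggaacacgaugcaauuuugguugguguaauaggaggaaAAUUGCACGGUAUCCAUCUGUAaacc

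In ESCs the 5p arm was nearly all that was read from the first 3 of these hairpins, and in reprogrammed cells the 3p arm had a visible share. For miR-106a, the 3p share of both arms was 0.0151%, 0.00881% and 0.0374% in ESCs, 11.2% and 13.04% in iPSCs, 9.37% and 7.88% in NT-ESCs and 16.6% and 12.51% in NT-iPSCs. For miR-18b, the mean 3p share was 0.297% ± 0.0886 (SD, n = 3) in ESCs and 10.7% to 18.8% in the 3 reprogrammed types. For miR-20b, it was 0.241% ± 0.0238 (SD, n = 3) in ESCs and 3.13% to 4.49% in the reprogrammed types. miR-363 went the other way. In MEFs its 3p share was 63.6% ± 7.75 (SD, n = 3) and in ESCs 72.6% ± 3.40 (SD, n = 3), so that the 3p arm led. In iPSCs it was 20.4% ± 5.78 (SD, n = 2), in NT-ESCs 19.5% ± 2.72 (SD, n = 2) and in NT-iPSCs 18.6% ± 2.44 (SD, n = 2), so that the 5p arm led in all 6 reprogrammed libraries.

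Tested as the VST of the 3p arm minus that of the 5p arm over the 9 pluripotent libraries, the balance moved toward 3p by 9.04 (SE 0.34, limma adjusted p = 1.01e-08) for miR-106a, by 5.79 (SE 0.25) for miR-18b and by 4.001 (SE 0.20) for miR-20b. For miR-363 it moved by -3.47 (SE 0.21), toward 5p. The hairpins of miR-106a and miR-18b entered this test only through reprogrammed libraries, since their 3p arms were under 10 reads in every ESC library, so their direction was set by the filter and their calls are a description. All 4 were called, as were 83.7% of the 245 hairpins tested, 45.3% toward 3p and 38.4% toward 5p, with a median absolute difference of 2.67. A changed arm balance was therefore the rule among all hairpins in this contrast, and a difference at least as large as that of miR-106a was seen for 5 hairpins, miR-106a included. In contrasts among the reprogrammed types, none of the 4 member hairpins was called. There, 0 of 245 hairpins were called by limma between NT-ESCs and iPSCs and between NT-iPSCs and iPSCs, and 0.408% were called between NT-iPSCs and NT-ESCs. Before adjustment, the threshold was passed by 31, 38 and 19 hairpins in these 3 contrasts. Only miR-18b in NT-ESCs against iPSCs was a member among them, at 0.93 (SE 0.36, limma adjusted p = 0.355). Over hairpins with at least 10 reads of each arm in every library compared, a choice made after the values were seen, 36.0% of 125 changed between ESCs and MEFs and 85.2% of 142 between reprogrammed cells and ESCs, with median absolute differences of 0.46 and 2.11. No member hairpin met this filter in the first of these contrasts and 2 did in the other, where miR-106a and miR-18b dropped out. Library handling moves with this contrast and its part in the arm balance was not tested.

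**Figure D3:**
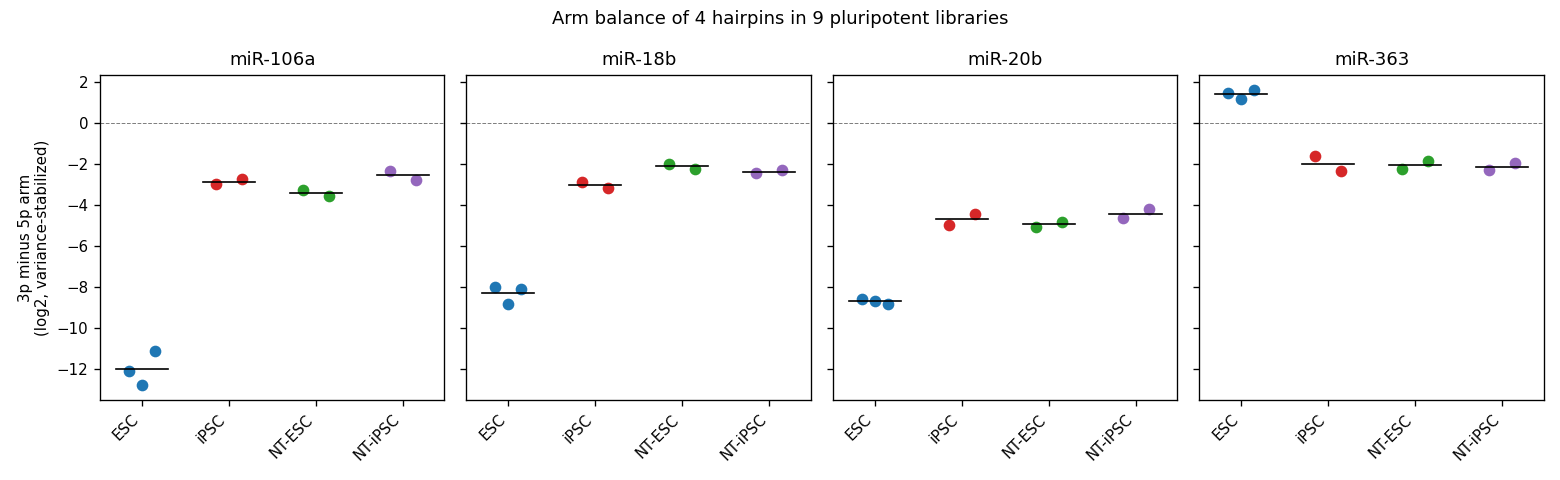
Balance of the arms (VST of the 3p arm minus VST of the 5p arm, log2 units) of the 4 hairpins with both arms among the members, in the 9 pluripotent libraries. Points are libraries, short lines are group means, and the dashed line marks equal arms. miR-106a, miR-18b and miR-20b lie lowest in ESCs, and miR-363 crosses from above to below the dashed line.

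**Figure D4:**
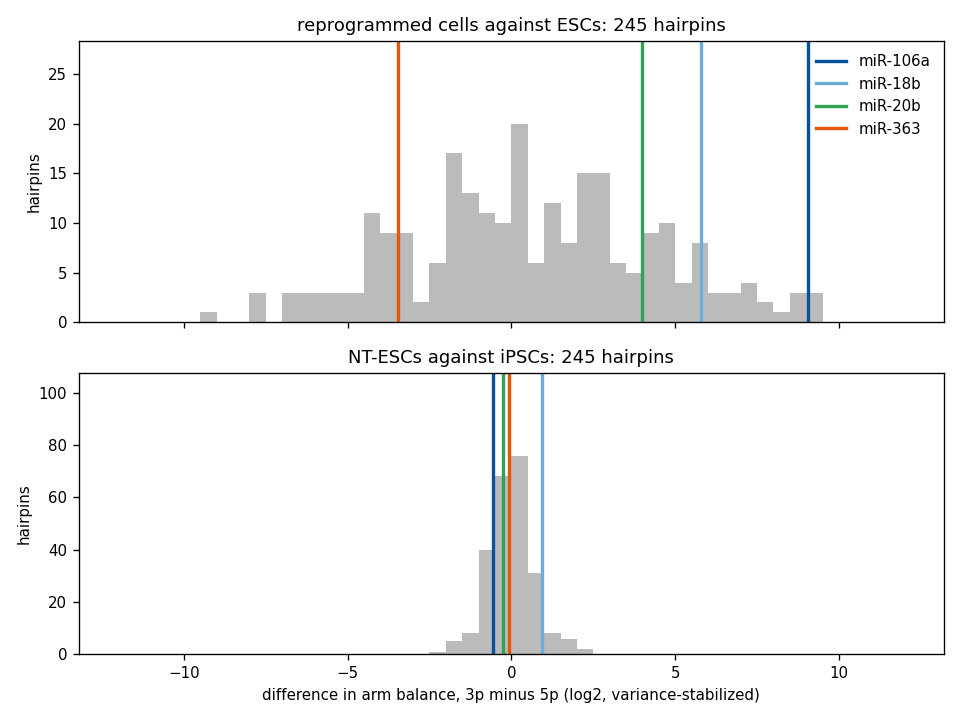
Histograms of the difference in arm balance (log2 units, bins of 0.5) over all hairpins tested, for reprogrammed cells against ESCs above and for NT-ESCs against iPSCs below. Vertical lines mark the 4 member hairpins, which lie at -3.47, 4.001, 5.79 and 9.04 above and within 1 unit of 0 below.

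The third question was how the X-linked copies compare with their counterparts on chromosome 14. In MEFs, nearly all reads of each pair were those of the counterpart. The share of miR-106a-5p in the reads of miR-106a-5p and miR-17-5p averaged 0.202% ± 0.0417 (SD, n = 3) in MEFs, whereas ESCs had 22.0% ± 2.47 (SD, n = 3). Among the reprogrammed types, iPSCs had 24.6% ± 1.51 (SD, n = 2), NT-ESCs 29.0% ± 3.03 (SD, n = 2) and NT-iPSCs 27.2% ± 1.42 (SD, n = 2). The ESC and iPSC libraries overlapped, and all 4 NT-ESC and NT-iPSC libraries, at 26.2% to 31.1%, were above the highest ESC library at 24.8%, although both miRNAs of the pair were lower in reprogrammed cells than in ESCs, by differences of -3.14 and -3.52. This is the pair that differs least in sequence, and how the authors' annotation split reads between its copies is not given in the sources used here.

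For miR-18b-5p against miR-18a-5p the share was 21.3% ± 1.22 (SD, n = 3) in ESCs and higher in each reprogrammed type, where iPSCs had 50.1% ± 13.2 (SD, n = 2), NT-ESCs 47.3% ± 1.19 (SD, n = 2) and NT-iPSCs 48.5% ± 0.827 (SD, n = 2). For miR-20b-5p against miR-20a-5p ESCs had 32.0% ± 1.13 (SD, n = 3), iPSCs 57.9% ± 9.88 (SD, n = 2), NT-ESCs 57.7% ± 0.241 (SD, n = 2) and NT-iPSCs 55.9% ± 0.421 (SD, n = 2). In both pairs every reprogrammed library was above every ESC library. Both members of each pair fell, and the chromosome 14 copy had the larger difference, -4.09 (SE 0.14) for miR-18a-5p and -4.88 (SE 0.19) for miR-20a-5p. With miR-363-3p and miR-92a-3p, which share a seed but differ by 10 bases, the share was highest in ESCs, at 38.6% ± 3.59 (SD, n = 3), while iPSCs had 4.29% ± 0.193 (SD, n = 2), NT-ESCs 7.72% ± 0.121 (SD, n = 2) and NT-iPSCs 5.86% ± 1.03 (SD, n = 2). Here it was miR-92a-3p that changed, with a difference of 3.09 (SE 0.17, limma adjusted p = 9.47e-09) in reprogrammed cells against ESCs. miR-92a-3p can come from either cluster, so its reads cannot be assigned to chromosome 14 alone.

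**Figure D5:**
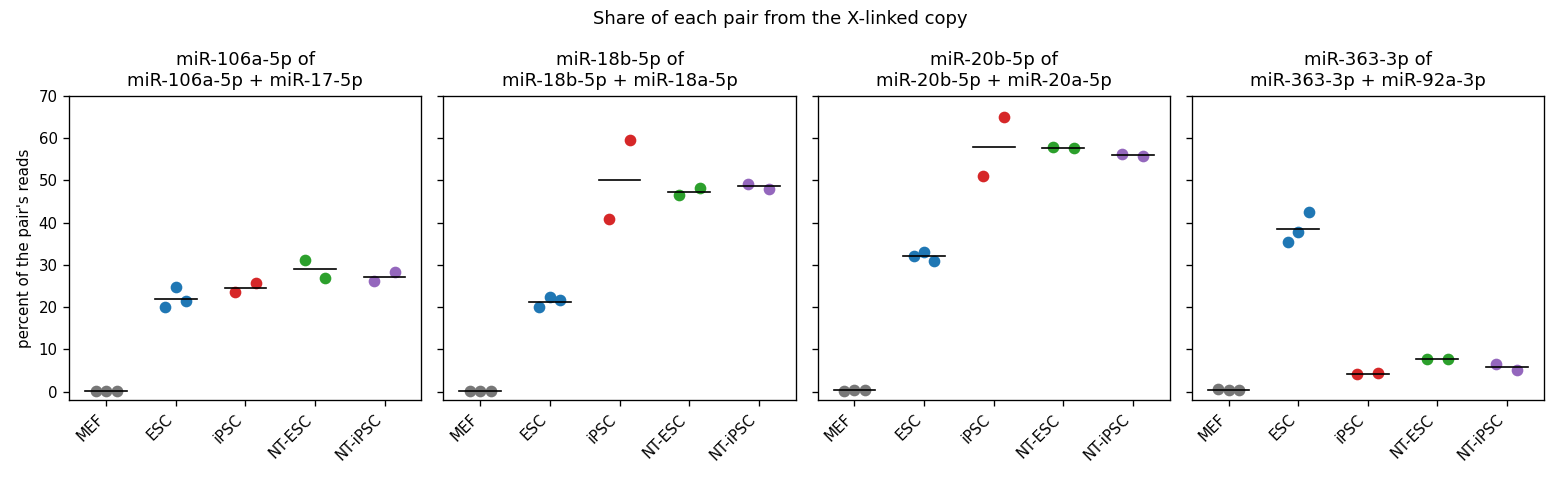
Share of each pair's reads that came from the X-linked member, in percent, for 4 pairs in the 12 libraries. Points are libraries and short lines are group means. MEF libraries are near 0 in every panel, the miR-20b-5p panel has the highest single library, an iPSC library at 64.9%, and the miR-363-3p panel falls from ESCs to reprogrammed cells.

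When the reads of the first 3 pairs were summed, the direction against MEFs turned in reprogrammed cells but not in ESCs. The sum of miR-106a-5p and miR-17-5p was lower in reprogrammed cells than in MEFs, by a difference of -2.07 (limma adjusted p = 9.16e-09), that of miR-18b-5p and miR-18a-5p by -2.35 (adjusted p = 3.42e-09) and that of miR-20b-5p and miR-20a-5p by -2.46 (adjusted p = 1.37e-08). In ESCs the sums were higher than in MEFs, by 1.353, 1.12 and 1.75 (adjusted p = 2.68e-06, 1.62e-05 and 1.90e-06). Over all 6 miRNAs in the table with the seed AAAGUGC, MEFs had 79101 ± 11914 (SD, n = 3) summed normalized reads and ESCs 241593 ± 18125 (SD, n = 3). Among reprogrammed types, iPSCs had 20478 ± 309 (SD, n = 2), NT-ESCs 30033 ± 101 (SD, n = 2) and NT-iPSCs 20699 ± 1516 (SD, n = 2). miR-106a-5p and miR-20b-5p gave 0.137% of the family's reads in MEFs, against 13.5% in ESCs and 12.3% to 16.4% in the reprogrammed types. For the seed AUUGCAC, 6 miRNAs summed to 24134 ± 2133 (SD, n = 3) normalized reads in ESCs and 209031 to 252048 in the reprogrammed types, and miR-363-3p gave 23.2% of the family's reads in ESCs and 1.70% to 2.34% in the reprogrammed types.

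In reprogrammed cells against ESCs, 8 of the 10 arms of the miR-17 to miR-92a cluster alone were lower and 2 were higher, with a median difference of -3.45. Of the higher arms, miR-19a-5p had 3 to 5 reads in ESC libraries. It passed the filter only through reprogrammed libraries, so its direction was set by the filter. Of the 6 arms of the miR-106b to miR-25 cluster, 3 were higher and 3 lower. With 82.0% of all miRNAs called in this contrast, 44.0% higher and 38.0% lower, that all were called is near the background. The arms that rose include miR-25-3p, by 4.20 (SE 0.15), and miR-92a-1-5p, by 1.06 (SE 0.16), the counterpart of miR-92a-2-5p.

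The last question was how far the reprogrammed types differ from each other. The median absolute difference of the 10 members was 0.70 in NT-ESCs against iPSCs and 3.17 in reprogrammed cells against ESCs. Over all 732 miRNAs these medians were 0.62 and 2.00. Not every member differed less here: miR-363-3p was at 0.66 against -0.26, and miR-20b-3p at 0.67 against 0.63. In NT-ESCs, 5 of the 10 members were higher than in iPSCs, where 25.7% of all miRNAs were called and 12.6% were called higher. Those 5 were miR-18b-3p by 1.11 (SE 0.34, limma adjusted p = 0.0356), miR-106a-5p by 1.02 (SE 0.28, adjusted p = 0.0206), miR-20b-5p by 0.94 (SE 0.17, adjusted p = 0.00272), miR-92a-2-5p by 0.86 (SE 0.20, adjusted p = 0.0104) and miR-363-3p by 0.66 (SE 0.20, adjusted p = 0.0340). miR-363-5p just missed the threshold at 0.73 (SE 0.25, adjusted p = 0.0509) and passed it with upper quartile scaling, the trimmed mean, log2 of normalized reads plus 1 or 0.5, voom and the filter of 100 reads (adjusted p = 0.00933 to 0.0474). Called members also lost calls. miR-363-3p did with the trimmed mean, only the groups compared and no trend (limma adjusted p = 0.0554, 0.0591 and 0.0621). miR-18b-3p did with no filter and the filter of 100 reads (adjusted p = 0.0587 and 0.0510). miR-92a-2-5p did with only the groups compared and thinning (adjusted p = 0.0737 and 0.108). A minimum difference of 1 removed miR-20b-5p, miR-92a-2-5p and miR-363-3p. In the same contrast, miR-19b-2-5p, with 1 to 6 reads per library, was at -0.04 (SE 0.61). The count fell to between 1 and 3 when either library of iPSCs or NT-ESCs was left out, and was 1 without NT-ESC replicate 71, which left miR-20b-5p. Fits that keep 1 library of a type assume that it varies like the other groups.

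In NT-iPSCs against iPSCs, 1 of the 10 members was called, where 26.5% of all miRNAs were. This was miR-92a-2-5p, higher by 1.08 (SE 0.20, limma adjusted p = 0.00278), at 7051 and 7412 normalized reads against 3173 and 3706. In NT-iPSCs against NT-ESCs, 1 of the 10 was called, where 12.8% of all miRNAs were. This was miR-20b-5p, lower by 0.70 on the log2 scale (difference -0.70, SE 0.17, limma adjusted p = 0.0282), at 2273 and 1830 normalized reads against 3484 and 3164. Its call was lost when NT-ESC replicate 71, NT-ESC replicate 72 or NT-iPSC replicate 52 was left out (adjusted p = 0.135, 0.117 and 0.138). The call of miR-20b-5p was also lost with the counterpart's reads added (-0.66, limma adjusted p = 0.0579) and with only the groups compared (adjusted p = 0.0622). It was just lost with upper quartile scaling and without trend (adjusted p = 0.05002 and 0.05004). miR-106a-5p, with the same seed, had a difference of -0.89 (SE 0.28, adjusted p = 0.0580), which passed the threshold with log2 of normalized reads plus 1, voom, the filter of 100 reads, the counterpart's reads added or libraries thinned to equal depth (adjusted p = 0.0109 to 0.0443). These 3 contrasts share libraries with each other, so they are not independent.

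By level, the order of cell types was ESC, NT-ESC, NT-iPSC, iPSC and MEF for the mean of miR-106a-5p and of miR-20b-5p, with no call between iPSCs and NT-iPSCs for either, nor between NT-ESCs and NT-iPSCs for miR-106a-5p as fitted here. For miR-363-5p it was NT-ESC, NT-iPSC, iPSC, ESC and MEF, with no call between any 2 of the reprogrammed types as fitted here. Among the 732 miRNAs, those outside the cluster with the VST pattern most like miR-20b-5p over the 12 libraries were miR-96-5p (Pearson's r = 0.994), miR-183-3p (0.993) and miR-429-3p (0.988). Those most like miR-363-5p were miR-294-5p (0.998), miR-291b-5p (0.995) and miR-101a-3p (0.993). Within the cluster, miR-20b-5p had an r of 0.997 with miR-106a-5p but of 0.701 with miR-363-5p, which itself had an r of 0.988 with miR-92a-2-5p. The 12 points fall into cell types and share their libraries, so these values are a description of likeness only.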

How the data were processed

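Small RNA was sequenced on the Solexa platform, and only reads that passed cleaning were annotated as miRNAs. The authors scaled miRNA reads by DESeq size factors and deposited log2 values (VST), with a row for each miRNA and a column for each library. The build in the submitters' processing notes is mm8; the miRBase release is not given in the sources used here. No genome coordinates come from the deposited table.

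The VST was inverted, which gave whole reads for 100% of values within 0.05 read (largest deviation 0.00347). As the values are log2, they were fitted with limma 3.58.1 in R 4.3.3, with 5 group means, all 12 libraries and an empirical Bayes trend, over the 732 miRNAs for which 2 or more libraries held 10 or more reads. Arm balance was fitted likewise in pluripotent libraries, over 245 of 407 hairpin names, those with 10 or more reads of each arm in 2 or more of these libraries. Shares were tested by exact permutation. Both fits were also run on simulated data, with log2 of normalized reads plus 1 in place of the VST. The simulated spread was the same for all miRNAs and only a minority were changed, unlike the contrasts with MEFs or ESCs. Those runs check the code and do not measure error rates in the real contrasts. No 2 replicate libraries agreed within counting noise. Scripts used matplotlib 3.10.9, scipy 1.17.1, pandas 2.3.3 and numpy 2.4.6 in Python 3.11.15.

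The members are the 10 arms by name, the other miRNAs named are those of the related clusters, the fixed counterpart pairs, markers, and the 3 most alike to miR-20b-5p and miR-363-5p. The members and lists were chosen with earlier results of these data known. Alternatives were upper quartile scaling, scaling by a trimmed mean of log ratios (30% and 5% trimmed), a pseudocount of 1 or 0.5 added to normalized reads before log2, voom, other filters, no trend, a minimum difference of 1, fits of only the groups compared, reads summed with the counterpart and each library left out. Thinning to equal depth and the filter on both arms in every library were chosen after seeing the data.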

Additional observations from a re-analysis of the deposited data

How the results depend on the processing

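Counts of members called in ESCs against MEFs, in reprogrammed cells or each reprogrammed type against ESCs, in reprogrammed cells against MEFs and in NT-iPSCs against iPSCs stayed within 1.5 times under all alternatives run. So did the arm balance of the 4 hairpins in reprogrammed cells against ESCs, except that requiring both arms in every library left no value for miR-106a and miR-18b. Among the reprogrammed types their arm balance was never called, and leaving out a library turned the sign for miR-20b and miR-363. For NT-ESCs against iPSCs, the 5 members called became 3 with only the groups compared, 2 with a minimum difference of 1 and 7 with voom, and 1 to 6 when a library was left out. For NT-iPSCs against NT-ESCs, the 1 called became 0 with upper quartile scaling, only the groups compared or a minimum difference of 1, became 2 with log2 of normalized reads plus 1, a filter of 100 reads throughout some group or libraries thinned to equal depth, and became 4 with voom. It was 0 to 2 when a library was left out. The difference in cluster share between reprogrammed cells and ESCs was -0.477 percentage points without miR-363-5p (p = 0.0238 in a two-sided exact permutation test, which cannot go lower). This member was left out because it has the most reads over all libraries, and as it is high in reprogrammed cells, its removal lowers that group by construction. Summing with the counterpart turned the differences of miR-106a-5p, miR-18b-5p and miR-20b-5p in reprogrammed cells against MEFs to -2.07, -2.35 and -2.46. In that contrast the counterparts alone, miR-17-5p, miR-18a-5p and miR-20a-5p, had differences of -2.52, -3.32 and -3.69. They held nearly all reads of each pair in MEFs, so the sums there are mostly their reads. The cause of the changes under the other settings was not tested. The filter of 100 reads left no value for miR-19b-2-5p. The median of all miRNAs in ESCs against MEFs was 0 with the deposited scaling, -0.28 with upper quartile scaling and 0.44 with the trimmed mean, beside 2.68 to 9.61 for the members. The lowest of these, for miR-106a-3p, became 0.90 with libraries thinned to equal depth. With 1 to 7 reads per library, miR-106a-3p and miR-18b-3p in ESCs and miR-19b-2-5p in reprogrammed cells are limited by depth. No paired analysis was possible because the groups share no replicate numbers.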

Other observations

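The last 2 bases of the mature sequence differ among the members, and the end of a small RNA is what an adaptor is joined to. This look was chosen after the values were seen. Of 549 tested miRNAs with a RefSeq mature sequence, the median difference between reprogrammed cells and ESCs was -0.01. Among 33 that end in AG it was -1.73, with 24 below 0, and without the 4 members among them it was -1.67 (n = 29). Among 34 that end in GC it was -1.88. Among 49 that end in GA it was -1.15, and among 33 that end in GG it was -1.31. Among 30 that end in CA it was 1.82, among 51 that end in UU it was 1.58, and among 21 that end in UA it was 1.70. It was between -0.51 (CC) and 1.30 (AA) in the remaining classes. Medians also varied by end in ESCs against MEFs, around -0.25 over all 549. There they were 0.49 for AG, 0.53 for GC, 1.91 for GA and -0.56 for GG. For CA, UU and UA they were 0.05, -1.16 and -1.06. miR-106a-5p, miR-18b-5p and miR-20b-5p end in AG and fell, miR-19b-2-5p ends in GC and fell, miR-20b-3p ends in AG and rose by 0.63, and miR-363-3p ends in UA and did not pass the test. miR-106a-3p and miR-92a-2-5p end in AC, where the median over 17 was 0.25, and rose by 5.91 and 1.86. miR-18b-3p ends in CU, where the median over 59 was 0.95, and rose by 3.50. miR-17-5p, miR-18a-5p and miR-20a-5p also end in AG. These are values across miRNAs, which share families and libraries, and the part of the ends in the members' differences was not tested.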
